A study of Mus musculus with 2 samples.

Results

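The serpins are a gene family of protease inhibitors and of related proteins with the same fold, and they were followed here in liver RNA of Bglu3 congenic mice and of C57BL/6 apoE-/- control mice. Members were all genes with a single-symbol probe set in the array annotation whose symbol begins with Serpin, a clade letter from a to i and a digit. This gave 40 of 18193 genes, measured by 56 of 45037 probe sets, and 28 members had 1 probe set while the others had up to 4. Another 29 serpin genes of the gene table had no such probe set and were not analysed here. There was 1 array for the congenic group and 1 for the control group. Both groups carry C57BL/6 as a strain label and hyperglycemia as the disease state, received chow from weaning at 3 weeks of age and then, from the age of 6 weeks, a Western diet for 12 weeks. The donor strain, the ends of the congenic segment, the apoE genotype of the congenic mice, the sex of the animals and the number of mice behind an array do not appear in the labels.

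A serpin presents a flexible loop that a protease cleaves as if it were a substrate, after which the serpin refolds and traps the enzyme in a covalent complex. Hepatocytes secrete most of the serpins of blood plasma, which restrain neutrophil elastase, thrombin, factor Xa, plasmin and the C1 proteases, and a few members have lost inhibition and carry hormones or fold collagen instead. The clade B serpins stay inside cells and guard them against granule proteases such as granzymes and cathepsin G.

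A gene was represented by its brightest probe set and counted as expressed when that probe set reached the median of its array, 19.3 on the congenic or 19.7 on the control array, on at least 1 array. A difference is the congenic value of log2(intensity + 5) minus the control value, a scale that understates changes at low intensity. The single array on each side leaves no replicate check, error or test, so "higher" and "lower" below describe a pair of arrays, and genes are counted by a size rule of 1.5-fold, which is 0.585 on the log2 scale. Intensities of different probe sets share no common scale and are not compared between genes. The arrays correlated at 0.978 across all probe sets on the log2 scale. In bulk liver RNA, fewer cells of a type and less RNA per cell cannot be told apart.

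Much of the family gave no usable level and the rest moved modestly in both directions. Of the 40 members, 20 were expressed, 3 of them were higher by 1.5-fold or more (Serpinb6b, Serpina7 and Serpinb9) and 2 lower (Serpina6 and Serpinb9b), while 15 lay within 1.5-fold and none reached 2-fold, which 3.36% of all expressed genes did. That is 25% of the expressed members past 1.5-fold, beside 12.7% of all 12614 expressed genes. By direction, 7.47% of all expressed genes were higher by this size and 5.23% lower. The median difference of the expressed members was 0.03 and that of all expressed genes 0.04, with 10 members above 0 and 10 below it. The median size of a difference, regardless of sign, was 0.31 among expressed members and 0.21 among all expressed genes. The share past 1.5-fold depends on level: among genes with a mean intensity of 100 or more, 3 of 17 members and 7.12% of all genes passed it, and under 100 it was 2 of 3 members and 20.2% of all genes. These shares rest on 5 genes. Of them, Serpinb9b passed the filter through the control array alone, which fixed its direction. With the filter required on both arrays, 3 of 19 expressed members were higher and 1 lower. Beside them, 8.98% of all genes expressed under that filter passed 1.5-fold in either direction.

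**Figure D1:**
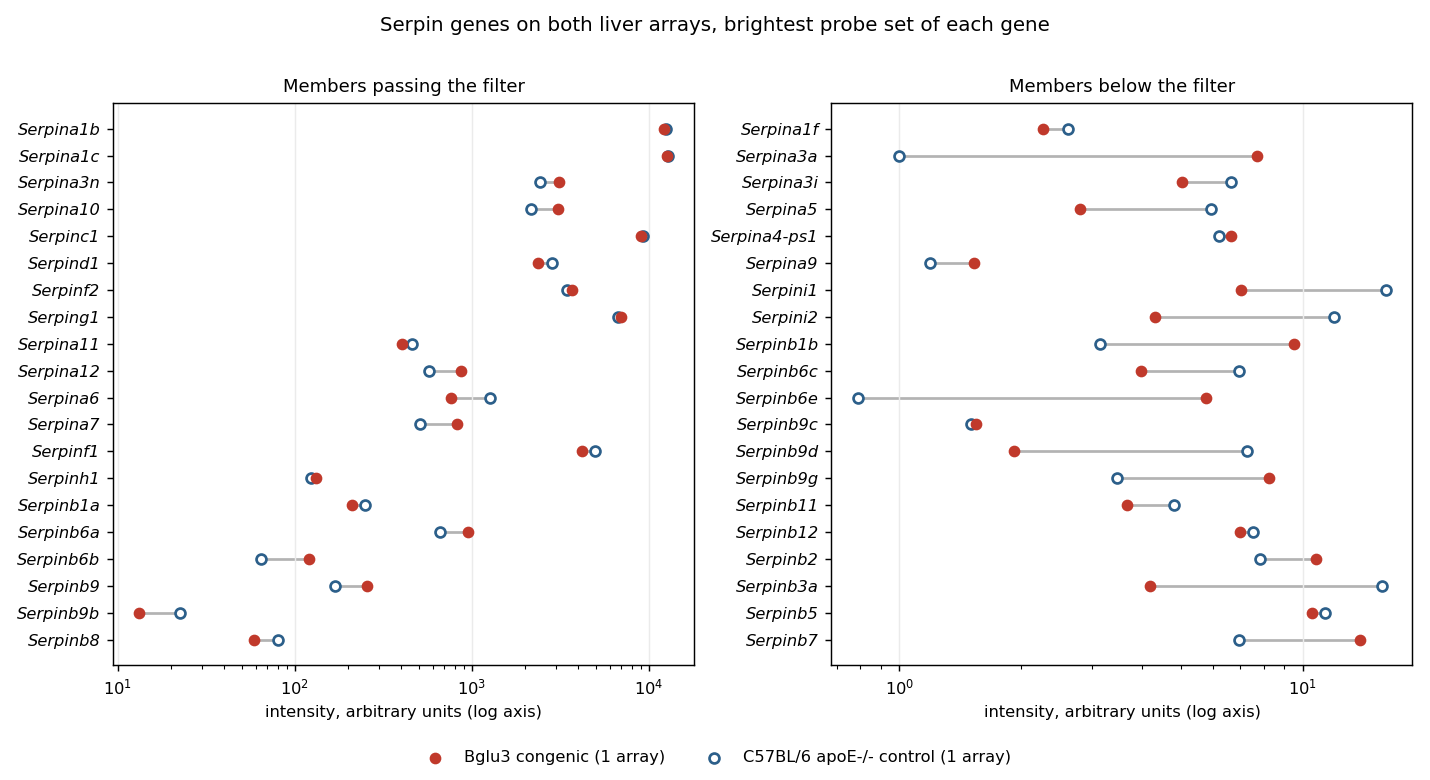
Intensity of each serpin gene's brightest probe set on the congenic array (filled) and the control array (open), on log axes, with the 20 expressed members on the left and the 20 below the filter on the right. Points of Serpina1b, Serpina1c and Serpinc1 almost coincide, those of Serpina6 and Serpina7 are parted in opposite directions, and distances between genes have no meaning because each probe set has its own scale.

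The alpha-1-antitrypsin genes encode the main plasma inhibitor of neutrophil elastase. They differed little by probe sets that the annotation assigns to 1 of them, and were lower in the congenic array by probe sets assigned to several. Serpina1c had an intensity of 12682 in congenic and 12756 in control liver (log2 difference -0.01). Serpina1b had 12096 in congenic and 12423 in control liver by its brightest probe set (-0.04) and 12119.8 against 11634 by the other (0.06). Both genes lay near the top of the arrays, whose highest values were 14440.3 (congenic) and 13395 (control), so a difference could be compressed there. Probe sets that the annotation assigns to several genes of this cluster are not counted as members. Of these, the probe set shared by 2 alpha-1-antitrypsin genes stood at 9618 in congenic and 11524 in control liver (-0.26), and that shared by 3 of them at 2716 and 3878 (-0.51), both lower in the congenic array and both within 1.5-fold. Both Serpina1b probe sets carry the suffix _x_at, as do both shared ones, and none of them is known to read a single gene. Serpina1f, a relative in the same cluster, was below the filter at 2.27 against 2.62.

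Single values of the cluster are uncertain, because probe sequences were not available to check which copies each probe set reads. The copies also resemble each other in the 250 bases before the gene starts, taken from RefSeq (build GRCm38.p6). These bases lie outside the transcripts, so their likeness is no measure of what the probe sets read. In a global alignment the windows of Serpina1b and Serpina1c shared 229 of 250 bases (91.6%), and over all pairs of Serpina1a to Serpina1e the share ran from 73.6% for Serpina1d with Serpina1e to 93.6% for Serpina1a with Serpina1c. The windows of Serpina1b (chr12:103738190-103738439, minus strand) and Serpina1c (chr12:103904951-103905200, minus strand) are shown 5′ to 3′, with motif matches in capitals. They were picked because the annotation assigns probe sets to these copies singly.
Serpina1b: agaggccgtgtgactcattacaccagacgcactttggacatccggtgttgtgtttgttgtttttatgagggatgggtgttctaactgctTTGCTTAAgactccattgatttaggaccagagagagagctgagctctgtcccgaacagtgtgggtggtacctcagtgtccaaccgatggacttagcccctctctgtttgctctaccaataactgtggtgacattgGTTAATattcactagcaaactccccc
Serpina1c: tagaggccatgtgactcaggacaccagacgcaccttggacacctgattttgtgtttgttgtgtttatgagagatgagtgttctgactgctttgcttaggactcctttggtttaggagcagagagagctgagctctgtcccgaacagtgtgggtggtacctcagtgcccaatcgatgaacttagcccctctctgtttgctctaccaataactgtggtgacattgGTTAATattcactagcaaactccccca
In both windows the capitals close to the start mark GTTAAT, a core of the binding motif of HNF1, a hepatocyte transcription factor. All of Serpina1a to Serpina1e held 1 match to it, as did 6.43% of the 32851 windows of the same length in the table. The other capitals, in Serpina1b, mark TTGCNNAA, a motif of C/EBP factors, found in 9.56% of all windows. The 5 motifs searched, on both strands, were these, TTCNNNGAA of STAT factors, GNACA followed after NNN by TGTNC for the glucocorticoid receptor, and GGG followed after NN by TTTCC for NF-kappaB. They were chosen after these windows had been scanned, and no matches in the printed windows overlap. A match is a run of letters and not a binding site.

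Serpins of coagulation, fibrinolysis and complement stayed within 1.5-fold, with 5 of 6 members expressed and a median difference of 0.07. Serpinc1 encodes antithrombin, the heparin-dependent inhibitor of thrombin and factor Xa, and stood at 9059 in congenic and 9251 in control liver (log2 difference -0.03). It is one of the expressed serpins on chromosome 1, the chromosome of the Bglu3 locus. Serping1, the C1 inhibitor, had 6966 against 6650.45 (0.07), and Serpinf2, the plasmin inhibitor alpha-2-antiplasmin, 3682 against 3427 (0.10). The extremes were both inhibitors of clotting enzymes. Serpina10, which blocks factor Xa with protein Z as cofactor, stood at 3067 in congenic and 2159 in control liver (0.51), and Serpind1, heparin cofactor II, a thrombin inhibitor, at 2360.2 and 2825 (-0.26). Serpina5, the protein C inhibitor, was below the filter at 2.81 against 5.92.

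Among expressed secreted serpins the largest differences were in the hormone carriers, and they ran in opposite directions. Serpina6 encodes corticosteroid-binding globulin, which carries glucocorticoids in plasma, and its intensity was 758 in congenic and 1272 in control liver. Its log2 difference of -0.74 was the lowest of the expressed members and ranked 376 from the lowest of all 12614 expressed genes. Serpina7, thyroxine-binding globulin, which carries thyroid hormone, stood at 822 in congenic and 511 in control liver, with a log2 difference of 0.68 that ranked 668 from the highest. Each carrier was read by 1 probe set, so neither has a value to check it within the arrays. Nr3c1, the glucocorticoid receptor, differed by -0.27 (419 against 506), with its 6 probe sets from -0.84 to 0.73, and Ttr and Alb, the other plasma carriers of thyroid hormone, by 0.06 and 0.13.

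Serpina12 encodes vaspin, an inhibitor of kallikrein 7 known for an insulin-sensitising effect in rodents. It stood at 863 in congenic and 574 in control liver, a difference of 0.584 that fell just short of the size rule, while Serpinb9 at 0.588 fell just inside it. The other probe set of Serpina12 had 34.9 in congenic and 17.3 in control liver (0.84). That probe set passed the filter through the congenic array alone and so had to be higher there. Serpina11 had 404 in congenic and 459 in control liver (-0.18). Agt, angiotensinogen, is a member of the same fold whose symbol lies outside the rule, and it stood at 2724 against 3521 (-0.37). Of the remaining members placed beside the carriers, Serpina9 and the pseudogene Serpina4-ps1 were below the filter.

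The windows before Serpina7 (chrX:139085237-139085486, minus strand) and Serpina12 (chr12:104044444-104044693, minus strand) are shown because these were the expressed secreted members with the largest positive differences. Of the 2 starts that the table lists for Serpina7, the window of the first listed is printed.
Serpina7: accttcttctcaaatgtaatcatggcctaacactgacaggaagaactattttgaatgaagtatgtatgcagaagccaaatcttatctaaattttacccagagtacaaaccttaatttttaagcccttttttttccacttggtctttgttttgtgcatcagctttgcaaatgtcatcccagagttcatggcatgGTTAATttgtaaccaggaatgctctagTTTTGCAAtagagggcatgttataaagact
Serpina12: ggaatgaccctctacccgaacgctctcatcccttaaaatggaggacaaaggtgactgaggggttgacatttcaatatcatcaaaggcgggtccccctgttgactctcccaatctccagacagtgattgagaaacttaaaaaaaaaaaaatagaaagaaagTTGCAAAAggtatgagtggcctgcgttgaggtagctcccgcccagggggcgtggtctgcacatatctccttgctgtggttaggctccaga
Capitals again mark motif matches, in Serpina7 GTTAAT followed by a C/EBP match nearer to the start, and in Serpina12 a C/EBP match alone. Of the 16 expressed members with a window, 4 held GTTAAT (Serpina1b, Serpina1c, Serpina7 and Serpinb8), 3 the C/EBP motif (Serpina1b, Serpina7 and Serpina12) and 2 the STAT motif (Serpina11 and Serpinb6a), which 7.02% of all windows hold. Serpina1b and Serpina7 thus hold the same pair of motifs, with differences of -0.04 and 0.68. Serpina6 had no window in the table.

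**Figure D2:**
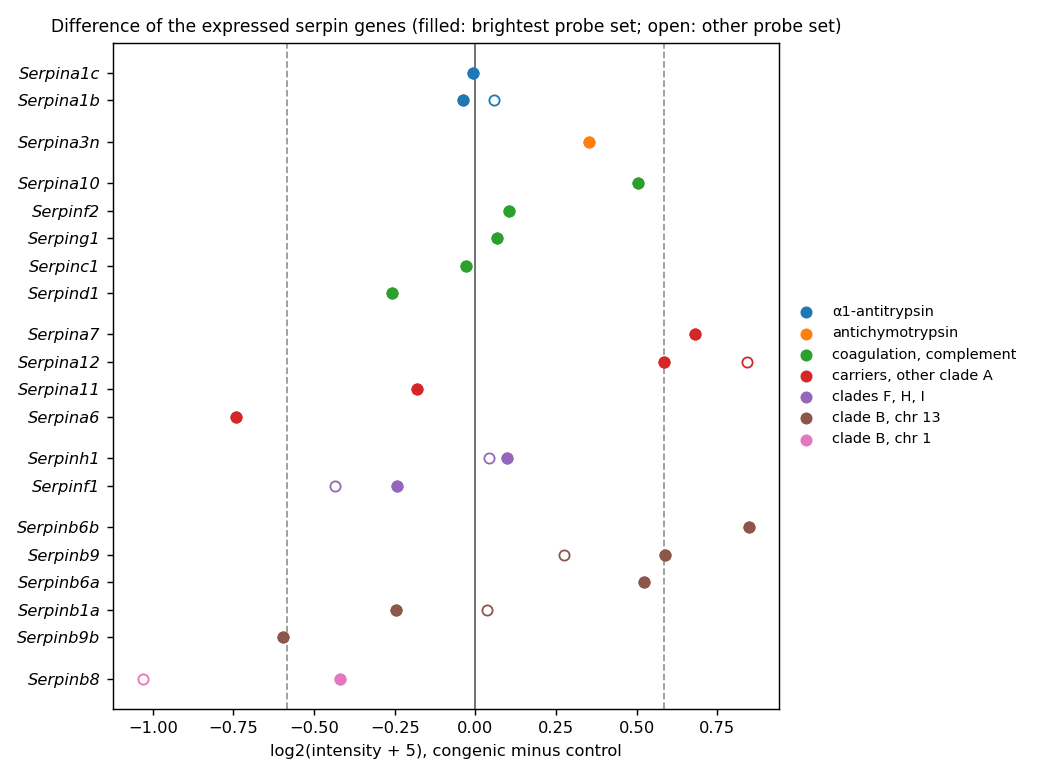
Log2 difference, congenic minus control, of the 20 expressed serpin genes grouped by role, with the brightest probe set filled, any other expressed probe set open, and dashed lines at 1.5-fold. Serpinb6b (0.85), Serpina7 (0.68) and Serpinb9 (0.588) lie beyond the right line and Serpina6 (-0.74) and Serpinb9b (-0.59) beyond the left one, while plasma inhibitors of clotting and complement run from -0.26 (Serpind1) to 0.51 (Serpina10).

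The antichymotrypsin cluster had 1 expressed member of 3. Serpina3n, an acute phase inhibitor that blocks granzyme B and other serine proteases, had 3109.8 in congenic and 2432 in control liver (log2 difference 0.35, within 1.5-fold). Serpina3a and Serpina3i were below the filter, at 7.69 against 1 and 5.03 against 6.64. The cluster holds many near-identical copies in the mouse, and probe sets can bind transcripts of close relatives. The window before Serpina3n (chr12:104406458-104406707, plus strand) is shown because this was the only expressed member whose window matched the glucocorticoid receptor and NF-kappaB motifs.
Serpina3n: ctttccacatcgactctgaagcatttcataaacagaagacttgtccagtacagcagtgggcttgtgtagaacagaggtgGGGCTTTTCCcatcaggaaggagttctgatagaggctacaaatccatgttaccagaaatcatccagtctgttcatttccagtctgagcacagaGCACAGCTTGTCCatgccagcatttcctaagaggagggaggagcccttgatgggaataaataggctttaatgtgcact
The capitals farther from the start mark the NF-kappaB motif, which 1.41% of all windows hold, and those nearer to it the glucocorticoid receptor motif, held by 0.387%.

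The acute phase response is the setting in which Serpina3n is best known, and other acute phase genes differed by more. Of all expressed genes 7.47% were higher by 1.5-fold or more and 5.23% lower. Of 21 acute phase protein genes, all expressed, 7 were higher by 1.5-fold or more and 1 lower, with a median of 0.19. Orm2 (5520.0 against 904, log2 difference 2.60), Saa2 (10938.5 against 2281, 2.26), Apcs (1.46), Lcn2 (1.16) and Saa1 (1.15) passed 2-fold, and Saa4 (-0.82) and Mt2 (-0.33) were its lowest. Regulators of this response did not share the direction, with a median of -0.26 over 11 expressed genes, 0 higher and 2 lower by 1.5-fold. Il1r1, an interleukin 1 receptor, stood at 269 against 735 (-1.43, another probe set at 0.26) and Il6ra, the interleukin 6 receptor, at 472 against 961 (-1.02), while Il6st, which transmits the interleukin 6 signal, and Nfkbia, an inhibitor of NF-kappaB, had the highest values at 0.33 and 0.22.

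The members of clades F and H outside coagulation stayed within 1.5-fold by both probe sets. Serpinf1, pigment epithelium-derived factor, a secreted protein that restrains vessel growth, had 4199.8 in congenic and 4967 in control liver (log2 difference -0.24), and its other probe set gave 1383 against 1872 (-0.43). Serpinh1 encodes Hsp47, the chaperone that folds collagen in the endoplasmic reticulum, and stood at 132 against 123 (0.10) and, by its other probe set, at 117 against 113 (0.04). Collagen genes of the stellate cell list differed by more: Col1a1 had 56.2 in congenic and 23.2 in control liver (1.12), Col3a1 1243 and 634 (0.97) and Col1a2 577 and 350.4 (0.71, with its 3 probe sets from -0.31 to 0.88). Serpini1, neuroserpin, and Serpini2, a serpin of the pancreas, were below the filter.

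Intracellular serpins of the chromosome 13 cluster spread widely, from -0.59 to 0.85, with 5 of 11 members expressed, 2 higher and 1 lower by 1.5-fold. Serpinb6b, which inhibits granzyme A in the mouse, had the largest positive difference of the expressed members, at 120 in congenic and 64.7 in control liver (log2 difference 0.85, rank 391 from the highest). Serpinb9, the inhibitor of granzyme B, stood at 256 against 169 (0.588), and its other probe set at 68.5 against 55.8 (0.27). Serpinb6a, which inhibits cathepsin G and related proteases, was in the same direction just under the size rule, at 957 against 664 (0.52). The others pointed down or were split. Serpinb1a, an inhibitor of neutrophil elastase, proteinase 3 and cathepsin G, had 209 in congenic and 249 in control liver (-0.25) and by its other probe set 161 against 157 (0.04). Serpinb9b, a granzyme M inhibitor of the mouse, had 13.3 in congenic and 22.6 in control liver (-0.59) and passed the filter through the control array alone, so it had to be dimmer on the congenic one.

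Lists of lymphocyte, macrophage and neutrophil markers held mostly higher genes, the direction of Serpinb6b, Serpinb9 and Serpinb6a, while that of mast cells and basophils did not (0 of 4 expressed genes higher and 1 lower). The lower gene, Kit (14.3 against 26.1), passed the filter through the control array alone, which fixed its direction. Its 2 probe sets ran from -0.69 to 0.51. For comparison with the counts in these lists, 7.47% of all expressed genes were higher by 1.5-fold and 5.23% lower. Among expressed genes with a mean intensity under 100, 20.2% passed it in either direction. T, NK and B cell markers had 9 of 14 genes expressed, with 6 higher and 1 lower (Prf1, perforin, -2.32, with another probe set at -0.08). Prf1, at 7.5 against 57.2, passed the filter through the control array alone, which fixed its direction. Among the 6 higher genes were Ighm (429 against 89.8) and Jchain (391 against 49.4). The 11 probe sets of Ighm ran from -0.59 to 2.66. Cd3e, Cd4 and Cd79a were below the filter. Macrophage and Kupffer cell markers had 7 of 11 expressed genes higher and 0 lower, among them Marco (1.85) and Timd4 (1.66). Neutrophil and myeloid precursor markers had 8 of 11 higher and 0 lower, led by Camp (3.78) and Prtn3 (3.20). Of these 8, 4 passed the filter through the congenic array alone (Camp, Prtn3, Mpo and Ltf) and so had to be higher there. No marker with a probe set in these 3 lists was at 0. The part of these cells in the serpin values was not tested. Serpinb1a, named above as an inhibitor of neutrophil proteases, was within 1.5-fold by both probe sets.

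The chromosome 1 cluster of clade B lay mostly below the filter. Of 7 members 1 was expressed, Serpinb8, a furin inhibitor in human cells, at 58.8 in congenic and 80.4 in control liver (log2 difference -0.42). Its other probe set gave 17.4 against 40.8 (-1.03). That probe set passed the filter through the control array alone, so it had to be dimmer on the congenic one. The 8 members on chromosome 1, this cluster and Serpinc1, thus gave 2 expressed genes, neither past 1.5-fold by its brightest probe set. Serpinb2, plasminogen activator inhibitor 2, was at 10.8 against 7.81. Serpinb5, known as maspin, was at 10.52 against 11.33 and its 4 probe sets gave differences from -0.40 to 0.21. On the other chromosomes 5 of 18 expressed members passed the size rule. Among genes named from the other lists, Apcs, Il1r1, Marco, Col3a1 and Spp2 also lie on chromosome 1. Where any of these genes lies relative to the ends of the congenic segment is not known here.

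The 20 members below the filter had intensities from 1.53 to 13.8 on the congenic and from 0.79 to 16.1 on the control array. Their differences ran from -1.18 for Serpinb3a (4.17 against 15.7) to 1.08 for Serpina3a, which rest on values near the bottom of the arrays. Among them 5 were higher and 4 lower by 1.5-fold. The remaining clade B genes of this kind were Serpinb1b, Serpinb6c, Serpinb6e, Serpinb9c, Serpinb9d, Serpinb9g, Serpinb7, Serpinb11 and Serpinb12.

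Probe sets of the same gene gave a measure of disagreement within this array pair. Over all 5195 genes with several expressed probe sets the SD between them was 0.34 on the log2 scale. In 7 serpin genes with 2 expressed probe sets the values lay from 0.05 (Serpinh1) to 0.61 (Serpinb8) apart, with a median of 0.26, and in 5 of the 7 both had the same sign. The exceptions were Serpina1b and Serpinb1a. For Serpina12 and Serpinb8 the filter fixed the sign of the dimmer probe set, so it is no check of the brighter. Of the 5 members past 1.5-fold, Serpinb9 was the only one with another expressed probe set, which lay within 1.5-fold. This spread says nothing about the difference between animals.

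**Figure D3:**
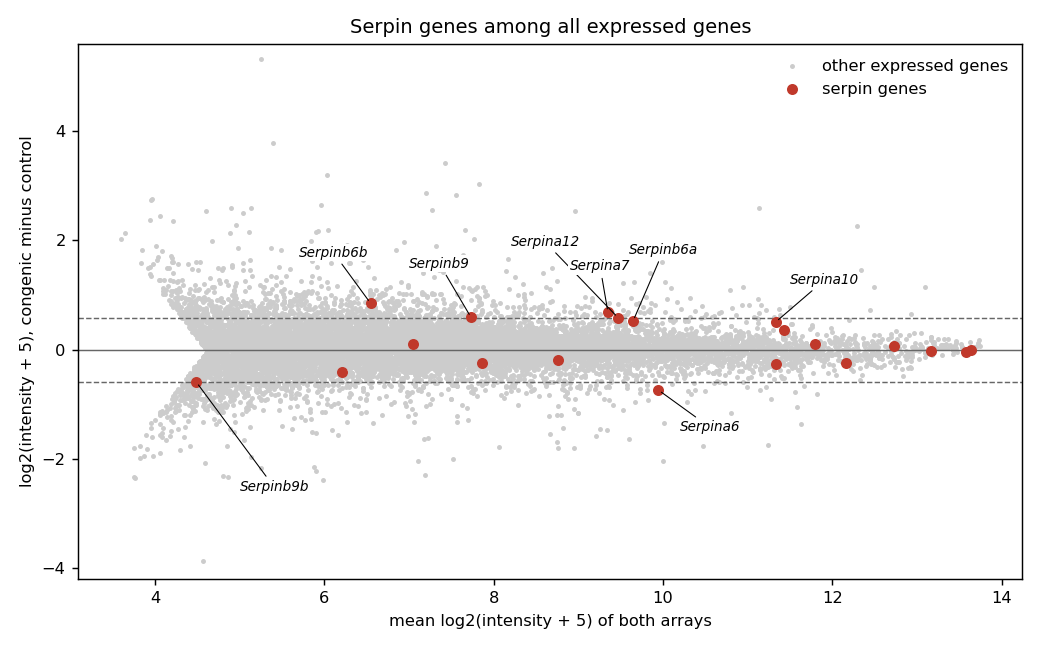
Log2 difference (congenic minus control) against mean log2 level for all 12614 expressed genes (grey) and the 20 expressed serpin genes (red), with dashed lines at 1.5-fold and names for serpin genes over 0.5 in size. The cloud widens at low levels, where Serpinb9b lies, whereas Serpina6 and Serpina7 sit at levels at which fewer genes pass the lines.

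Coagulation, fibrinolysis and complement proteases, many of them restrained by plasma serpins, were nearly level. All 15 genes of the coagulation and fibrinolysis list, which also holds Tmprss6 and Prss8 from outside these pathways, were expressed. None passed 1.5-fold, and 13 were lower at any size, with a median of -0.10. They ran from Plau and Tmprss6, each at -0.25 (Plau with another probe set at 0.39), to Plat (0.0015) and Plg, plasminogen (9718 against 9164, 0.08). Plau, at 16.7 against 20.8, passed the filter through the control array alone, which fixed its direction. The 7 expressed complement protease genes lay between Masp2 (-0.09), with Masp1 at -0.08 (its 5 probe sets from -0.52 to 0.28), and C2 (877 against 634, 0.47), with C1ra at 0.14, and their median was 0.06. F2, prothrombin, whose active form is the target of Serpinc1 and Serpind1, had 8556 against 8935 (-0.06).

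Granule and lysosomal proteases, which include targets of intracellular and of plasma serpins, included higher genes. Of all expressed genes 7.47% were higher by 1.5-fold and 5.23% lower, and 20.2% of those under a mean intensity of 100 passed it either way. Of 12 expressed genes in this list 4 were higher by 1.5-fold and 0 lower, with a median of 0.45. Of these 4, 2 passed the filter through the congenic array alone, Prtn3 and Gzmk, and so had to be higher there. Prtn3, proteinase 3, stood at 194 in congenic and 16.6 in control liver (log2 difference 3.20) and Gzmk, granzyme K, at 27.5 and 5.65 (1.61). Gzma, the target of Serpinb6b, had 76.5 against 43.1 (0.76), Gzmb, the target of Serpinb9, 54.5 against 38.1 (0.46), and Ctsg, a target of Serpinb6a, 54.4 against 33.3 (0.64). The lowest were Cma1 (-0.45) and Ctsk (-0.29), and Elane, neutrophil elastase, differed by 0.24. Cma1, at 14.9 against 22.1, passed the filter through the control array alone, so it had to be dimmer on the congenic one.

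Protease inhibitors outside the family were mostly within 1.5-fold. Of 24 expressed genes 1 passed 1.5-fold, A2m, alpha-2-macroglobulin, at 26.3 in congenic and 49.9 in control liver (log2 difference -0.81), and the median was 0.09. Spp2 (-0.41, with another probe set at 0.82) was the next lowest, and Spink1 (0.51) and Itih3 (0.34) were the highest. Receptors and cofactors of serpins had a median of 0.04 over 10 expressed genes. Lrp1, the hepatic receptor that clears serpin and protease complexes, stood at 995 against 787 (0.34, with another probe set at 0.02). Stab2, a scavenger receptor of sinusoids, stood at 577 against 450.1 (0.36). Thbd, thrombomodulin, the endothelial cofactor that turns thrombin towards protein C, was the exception with 76.7 in congenic and 251 in control liver (-1.64), and Plaur, the urokinase receptor, differed by -0.26.

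**Figure D4:**
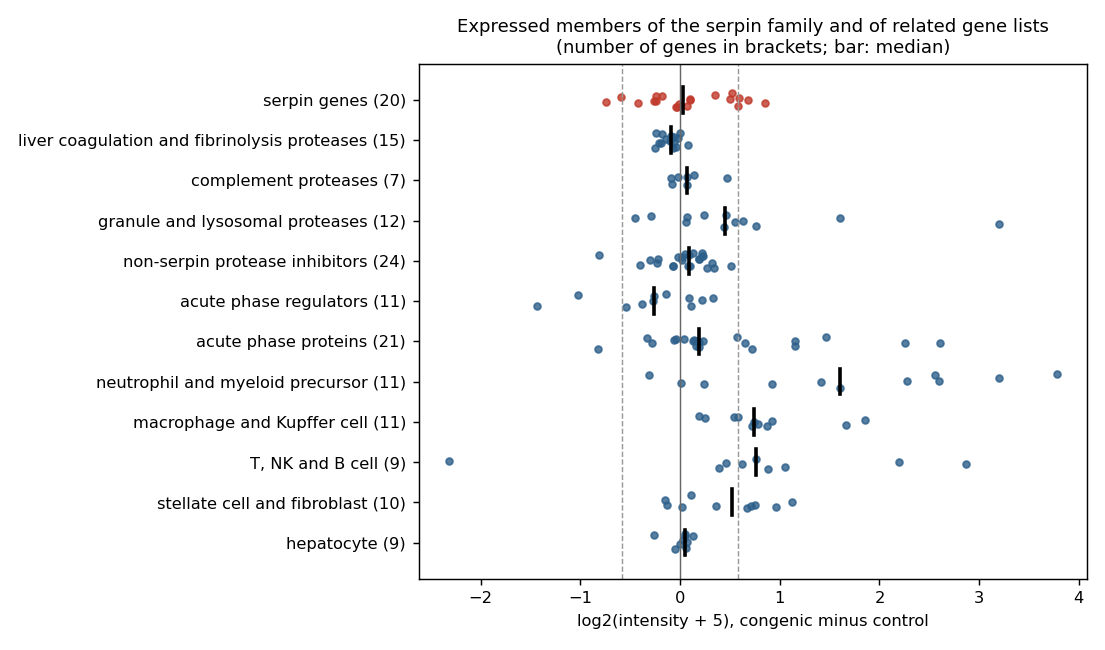
Log2 difference (congenic minus control) of each expressed gene in the serpin family and in lists of proteases, other inhibitors, acute phase genes and cell markers, with the median as a bar, dashed lines at 1.5-fold and the number of genes in brackets. Serpin genes centre on 0.03 like coagulation proteases (-0.10) and hepatocyte markers (0.05), while granule proteases (0.45), macrophage (0.74) and neutrophil markers (1.61) lie to the right.

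The tissue label was checked against markers. Of 9 hepatocyte markers all were expressed and none passed 1.5-fold by its brightest probe set. They lay between Hnf4a (-0.26, its 4 probe sets from -0.59 to -0.26) and Alb (0.13). Stellate cell and fibroblast markers had 5 of 10 higher and 0 lower by the brightest probe set, beside 7.47% and 5.23% of all expressed genes. Of the 5, Acta2 (3 probe sets from -0.78 to 0.75) and Pdgfrb (2 from -0.54 to 0.67) were split. So was Col1a2 (3 from -0.31 to 0.88), while Col1a1 and Col3a1 were above 0 by all probe sets. Endothelial markers had 0 of 8 higher, with another probe set of Cdh5 at 1.16, and 1 lower, Lyve1 (-0.64). Cholangiocyte markers had 4 of 6 expressed, with 0 past 1.5-fold. Keratinocyte markers had 3 of 8 expressed, with 0 higher and 1 lower, pancreatic acinar markers 2 of 8 and neuron markers 1 of 6, with 0 past 1.5-fold. The lower keratinocyte gene, Trp63 (6.15 against 19.7), passed the filter through the control array alone, which fixed its direction. Its 4 probe sets ran from -2.90 to 0.80. The labels give no sex, and Xist stood at 2132 against 1711. Of the Y-linked genes, Uty was at 19.1 against 34.8 (its 4 probe sets from -0.72 to 1.07). Uty passed the filter through the control array alone, which fixed its direction. Kdm5d was at 5.54 against 16.4 (its 3 probe sets from -1.02 to 0.24) and Eif2s3y at 7.49 against 14.9. Sex-biased liver genes differed in both lists: of 8 expressed male-biased genes C6 (1.26) was higher by 1.5-fold and Slco1a1 (-1.51), Cyp4a12a (-1.42) and Elovl3 (-1.09) were lower, with Hsd3b5 at 0.34. Cyp4a12a (7.49 against 28.3) passed the filter through the control array alone, which fixed its direction. Of 6 female-biased genes, Sult2a2 (-1.35) and Sult3a1 (-0.79) were lower and 0 higher, with Cyp17a1 at 0.45 and Acot3 at 0.06. Apoe, disrupted in the control strain, had 229 in congenic and 118 in control liver (0.93). The position of its probe set in the gene is unknown here, and the value is no check of genotype.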

How the data were processed

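Each array's deposited values are linear intensities, 1 for a probe set. Per the labels' protocols, 8 µg of total RNA from liver went into biotin-labelled cRNA. How the authors summarized probes and scaled the arrays was not given in the sources used here. Values were used as deposited (array medians 19.3 congenic, 19.7 control). Of 45037 probe sets left without 64 controls, 34945 had 1 symbol, 932 several and 9160 none, and genes were named from the single-symbol ones. The number of arrays limits the precision.

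The brightest probe set was that with the highest mean log2(intensity + 5). Chromosomes came from the RefSeq gene table of GRCm38.p6, in which all 40 members matched, and promoter windows from RefSeq. Python 3.11.15, numpy 2.4.6, pandas 2.3.3, statsmodels 0.14.6 and biopython 1.88 were used. The procedure was tested on simulated data. Of 229 genes in the other lists, 25 had no single-symbol probe set and are not reported here. Named were all members, and of each protease, inhibitor, receptor, acute phase and sex-biased list the 2 highest and 2 lowest expressed genes and those past 2-fold. Of the marker lists, the genes named are examples or extremes, chosen after their values were seen. Members and lists were chosen with earlier results of these data known. Alternatives were other scalings, pseudocounts of 20 and 1, other filters, other probe set rules and a rule of 2-fold.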

Additional observations from a re-analysis of the deposited data

How the results depend on the processing

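The median difference of the expressed serpin genes moved between -0.03 and 0.08 over 10 alternatives. The number of serpin genes higher by 1.5-fold or more was 3 as reported, 2 with quantile normalization, a loess trend removed and a pseudocount of 20, 4 with median centring and a pseudocount of 1, 8 without a filter on level (40 genes) and 0 with a rule of 2-fold. The number lower was 2 as reported, 1 with median centring, quantile normalization, a loess trend removed, a pseudocount of 20, a filter at the 75th percentile and a filter required on both arrays, 3 with the mean over expressed probe sets, 6 without a filter and 0 with 2-fold. Serpina6 (-0.77 to -0.71), Serpina7 (0.65 to 0.71) and Serpinb6b (0.73 to 0.89) stayed past 1.5-fold under all 7 alternatives run for single genes. Serpinb9 (0.43 to 0.62) and Serpinb9b (-0.73 to -0.36) did so under 3 of 7 each, and no difference changed sign. Over all expressed genes, 942 were higher and 660 lower as reported, against 548 and 349 with a pseudocount of 20, 1578 and 1451 without a filter, 387 and 213 with the 75th percentile, 658 and 382 with the filter on both arrays and 241 and 183 with 2-fold. Values at the low end of the arrays limit the 20 members below the filter and Serpinb9b. No paired analysis was possible because each group has 1 array.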
